A study of Mus musculus with 4 samples.

Results

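Endothelial nuclei were studied in single-nucleus RNA sequencing of the deep cerebellar nuclei, through which the cerebellum sends its output, in 4 libraries from mice. They were chosen by their own counts: a nucleus was taken when at least 3 of 7 endothelial genes (Flt1, Cldn5, Pecam1, Ly6c1, Slco1a4, Adgrl4 and Egfl7) had a count, and when these outnumbered the genes with a count among 8 genes of mural cells (Rgs5, Pdgfrb, Kcnj8, Abcc9, Vtn, Notch3, Myh11 and Myl9). Nuclei that the submitters listed in a separate vglut2 table were left out. The rule took 664 of 21494 nuclei. The 15 genes of the rule, where tested, stayed in the fits and their adjustment, and are left out of the counts and results below.

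Per the labels, all mice were C57BL/6J and carried the Ai32 allele, from which Cre turns on a channelrhodopsin-EYFP fusion, together with 1 of 2 Cre transgenes. Ucn3-Cre replicate 1 came from a female of 3 months and its nuclei were isolated on an iodixanol gradient. Ucn3-Cre replicate 2 came from a male of 3 months, vGluT2-Cre replicate 1 from a male of 2 months and vGluT2-Cre replicate 2 from a female of 2.5 months, all isolated through a sucrose cushion. The Cre drivers are named for neuronal genes, and the labels record no sorting of nuclei and not how many mice a library pooled, so p-values measure the spread between these 4 libraries. Wherever 4 values follow each other below, they stand in the order Ucn3-Cre replicate 1, Ucn3-Cre replicate 2, vGluT2-Cre replicate 1 and vGluT2-Cre replicate 2.

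Endothelial cells line blood vessels, and in the brain they form the blood-brain barrier. Tight junctions seal the gaps between them, transporters in their membranes carry glucose, amino acids and hormones across and pump drugs back into the blood, and traffic in vesicles across the cell is kept low. Wnt signals from neighbouring neural cells, acting through beta-catenin and TCF/LEF factors, keep this state, and ETS factors such as ERG maintain endothelial identity. Mural cells (pericytes and smooth muscle) sit on the outer face of the same vessels and share a basement membrane with them.

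Among the genes that stood highest in endothelial nuclei and took no part in the rule were Nostrin, which binds endothelial nitric oxide synthase, Emcn, a sialomucin of the endothelial surface, Tie1, a receptor tyrosine kinase of vessels, and Itm2a, a membrane protein of brain endothelium. Their promoters are shown because these genes were high together in the endothelial sums and hold letters that ETS or TCF/LEF factors are known to recognise. Each runs 5′ to 3′ from 250 bases before to 50 bases after the RefSeq start on GRCm38.p6, with matches to AGGAAG (ETS) or CTTTGA (TCF/LEF), on either strand, in capitals.
Nostrin, chr2:69135550-69135849, plus strand: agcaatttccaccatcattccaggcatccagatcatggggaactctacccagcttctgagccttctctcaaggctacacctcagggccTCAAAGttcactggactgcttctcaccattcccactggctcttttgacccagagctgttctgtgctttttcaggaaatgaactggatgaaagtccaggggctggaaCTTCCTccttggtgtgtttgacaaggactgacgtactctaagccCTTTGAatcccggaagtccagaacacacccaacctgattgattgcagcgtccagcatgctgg
Emcn, chr3:137340828-137341127, plus strand: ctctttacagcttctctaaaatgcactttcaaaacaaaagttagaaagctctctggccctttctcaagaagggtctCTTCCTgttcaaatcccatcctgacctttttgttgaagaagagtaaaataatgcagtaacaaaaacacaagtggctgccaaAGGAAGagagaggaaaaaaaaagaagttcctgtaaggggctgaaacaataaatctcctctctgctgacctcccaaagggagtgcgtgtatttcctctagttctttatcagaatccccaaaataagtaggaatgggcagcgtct
Tie1, chr4:118489800-118490099, minus strand: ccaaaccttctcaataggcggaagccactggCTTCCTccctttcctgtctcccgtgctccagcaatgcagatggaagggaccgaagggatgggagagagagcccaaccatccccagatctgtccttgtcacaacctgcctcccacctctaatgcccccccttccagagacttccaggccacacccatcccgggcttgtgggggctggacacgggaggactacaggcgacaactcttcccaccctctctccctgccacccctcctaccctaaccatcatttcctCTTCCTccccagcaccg
Itm2a, chrX:107403311-107403610, minus strand: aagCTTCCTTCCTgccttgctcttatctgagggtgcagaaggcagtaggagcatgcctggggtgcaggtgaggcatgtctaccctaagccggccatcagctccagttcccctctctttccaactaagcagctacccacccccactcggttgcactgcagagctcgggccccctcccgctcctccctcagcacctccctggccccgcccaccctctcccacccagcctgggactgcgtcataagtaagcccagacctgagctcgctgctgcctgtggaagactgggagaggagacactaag

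The Nostrin window held 1 ETS match and 2 TCF/LEF matches, and the windows of Emcn, Tie1 and Itm2a held 2 ETS matches each, those of Itm2a overlapping. AGGAAG or its reverse complement was found in 9 of 18 promoters (50.0%) of the 13 genes with an entry in the RefSeq table among the 20 leading genes named below, in 37.6% of the promoters of all genes at least 4-fold higher in endothelial nuclei, in 32.5% of those of all genes tested and in 35.4% of all 32851 promoters in the table. CTTTGA was found in 5 of the same 18 promoters (27.8%), in 12.1% of those of the genes at least 4-fold higher, in 11.8% of those of the genes tested and in 16.0% of all. A promoter of Abcb1a, whose RefSeq start lies far from its GENCODE start, is among both the 9 and the 5. These matches describe letters in a window and not binding. The genes themselves lie at chr2:69135800-69189330 (Nostrin), chr3:137341067-137432185 (Emcn), chr4:118471191-118490061 (Tie1) and chrX:107397099-107403376 (Itm2a) in GENCODE vM21 on GRCm38, whose start sites need not be those of RefSeq.

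The 664 nuclei were 132, 249, 71 and 212 of 4291, 6587, 5642 and 4974 nuclei. That gave shares of 3.08% (95% Clopper-Pearson interval 2.58 to 3.64), 3.78% (3.33 to 4.27), 1.26% (0.984 to 1.58) and 4.26% (3.72 to 4.86), intervals that cover counting error only. The share in vGluT2-Cre replicate 1 was the lowest, and its interval met no other. Mural nuclei, taken by the mirror rule (at least 3 mural genes with a count, and more than endothelial ones), were 74, 132, 68 and 117, or 1.72%, 2.00%, 1.21% and 2.35%. With at least 4 endothelial genes asked for, 601 nuclei remained, and with at least 2, 796 were taken. A share of nuclei depends on what the dissection and the isolation kept as well as on the tissue, and the 2 cannot be told apart here.

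**Figure D1:**
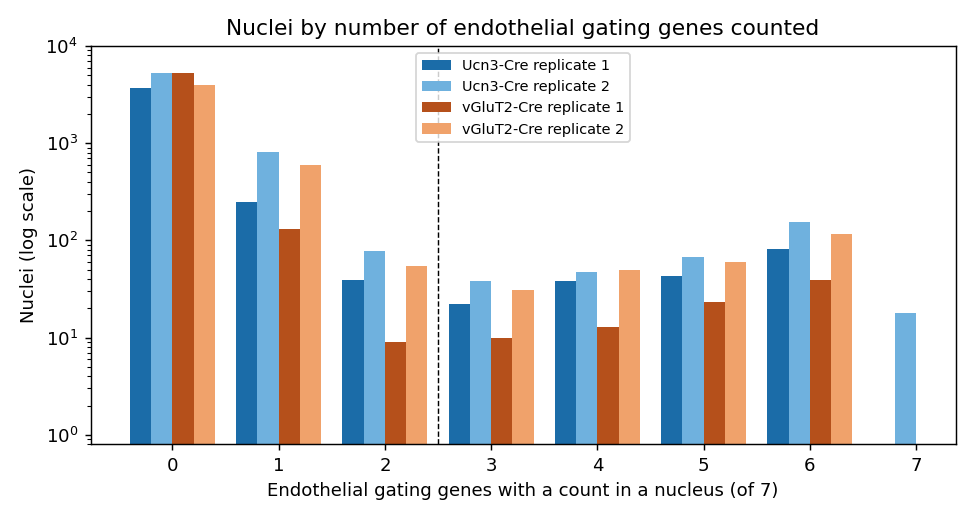
Number of nuclei (log axis) by how many of the 7 endothelial genes of the rule had a count, 0 to 7, with 1 bar per library. The numbers fell from 18197 nuclei with none to 101 with 3 genes and rose again to 391 with 6, and the dashed line marks the threshold of 3 genes.

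Most nuclei lay far from the threshold, as the plot of nuclei by number of endothelial genes shows: 18197 had a count for none of the 7 genes, 1788 for 1, 179 for 2, 101 for 3, 147 for 4, 193 for 5, 391 for 6 and 18 for all 7. Only 18 nuclei held all 7 because Egfl7 was counted in Ucn3-Cre replicate 2 alone, with 24 counts. The other 6 genes were each counted in most endothelial nuclei of every library. Flt1, the decoy receptor for VEGF, had a count in 93.9%, 97.6%, 93.0% and 89.6% of them and Cldn5, the main claudin of the barrier, in 92.4%, 92.8%, 94.4% and 92.9%, against 2.17% and 2.22% of the 19959 nuclei that were neither endothelial nor mural. The median depth was 2132 counts in endothelial nuclei and 2359 counts in those others.

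The label was checked with 7 other endothelial genes that the rule did not use: Cdh5, Tie1, Erg, Emcn, Ptprb, Cyyr1 and Abcb1a. Together they made up 4510 CPM (counts per 1000000 counts) of the endothelial nuclei and 93.8 CPM of the 20350 other nuclei, and at least 1 of them had a count in 93.2% and 5.65% of nuclei. The 391 mural nuclei, which are among those others, held 2246 CPM of the set, and 48.1% of them had a count for at least 1. The 63 nuclei just inside the threshold, with 3 genes, held 833 CPM of this set and a median of 1784 counts. The 179 nuclei just outside, with 2 genes, held 221 CPM. A further 186 nuclei had 3 or more endothelial genes but no fewer mural ones and stayed outside; they held 3678 CPM of the set and a median of 4082 counts.

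RNA of other cell types was counted in the endothelial nuclei too. A mural gene of the rule had a count in 454 of the 664 (68.4%; 79.5%, 68.3%, 49.3% and 67.9% by library), against 16.6% of the nuclei that were neither. Rgs5, a pericyte gene, was the most frequent, in 71.2%, 60.6%, 38.0% and 58.5% of endothelial nuclei. The 8 mural genes summed to 1413 to 2782 CPM in endothelial nuclei and to 9291 to 10664 CPM in mural nuclei, and none was at 0. In return 113 of 391 mural nuclei (28.9%) held at least 3 endothelial genes. The 8 oligodendrocyte markers summed to 1112 to 2330 CPM, the astrocyte markers to 560 to 989 CPM and the neuron markers to 672 to 1162 CPM, against 4129 to 4878, 2287 to 2878 and 370 to 599 CPM in other nuclei. Microglial markers (202 to 324 CPM) and markers of oligodendrocyte precursors (226 to 479 CPM) were below the other nuclei (375 to 442 and 1219 to 1365 CPM). Fibroblast markers were at 88.4 to 285 CPM against 62.5 to 100.1 CPM, and ependymal and choroid plexus markers at 4.65 to 12.2 against 7.80 to 10.2 CPM, with Folr1 at 0. The 5 blood genes, haemoglobins and Alas2, summed to 2883, 3776, 2819 and 626 CPM, above the 185 to 444 CPM of other nuclei in every library. In all, 302 endothelial nuclei (45.5%) held at least 3 markers of another class; no doublet caller was run. Without these nuclei 230 of 237 named or listed genes kept their call against other nuclei, 4 lost it and 3 gained one.

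Across the 4 libraries the endothelial nuclei summed to 317733, 610481, 155935 and 658095 counts, at a median of 2063, 2071, 2011 and 2331 counts per nucleus. Other nuclei had medians of 1815, 2110, 2405 and 3321 counts. In the deposited data a count was lacking in every nucleus of at least 1 library for 4186 of 15632 genes, 1806 to 2329 genes per library, although many of them were counted in the others. Such a gene is given below as listed at 0 in that library. Of 41 barcodes found in more than 1 library, 1 belonged to an endothelial nucleus.

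The first comparison asked which genes set endothelial nuclei apart from all other nuclei of the same libraries. Counts were summed per library, and genes were tested with edgeR's quasi-likelihood test with the library as a block, 12762 of them outside the rule. Since the nuclei were picked by their counts, the adjusted p-values say how reproducible a difference was over the 4 libraries and are too small as tests of identity. Of these genes 7012 (54.9%) differed at an adjusted p below 0.05: 3468 (27.2%) were higher in endothelial nuclei, 806 (6.32%) of them by at least 4-fold, and 3544 (27.8%) were lower, 787 (6.17%) by at least 4-fold. The median log2 fold change of all genes tested was -0.04.

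The 20 genes with the largest fold change were taken among named genes higher in all 4 libraries. Each had passed the threshold, with at least 10 counts in every endothelial sum. Their log2 fold changes were 5.43 to 6.05. They were Abcc6, Nostrin, Atp10a, Xdh, Lef1, Hmcn1, Cyyr1, Abcb1a, Paqr5, Erg, Zfp366, Slc19a3, Itm2a, Ptprb, Layn, Emcn, Cd93, Ly6a, Tie1 and Iigp1. Nostrin was at 658, 745, 572 and 684 CPM in endothelial nuclei and at 16.3, 16.4, 2.36 and 11.9 CPM in other nuclei, a log2 fold change of 5.97 ± 0.24 (SE; adjusted p = 1.64e-19, edgeR). The lowest endothelial library lay far above the highest library of other nuclei, and this held for all 20 genes. The genes were picked for a large difference in the same direction in every library, so this separation follows largely from the pick. The share of all tested genes without overlap is not given here. Emcn measured 588, 679.5, 584 and 648 CPM against 18.4, 22.2, 3.77 and 14.1 CPM (5.55 ± 0.23). Itm2a measured 1269, 1474, 1349 and 1482 CPM against 48.2, 41.4, 6.80 and 33.8 CPM (5.64 ± 0.28). For each of the 20 genes the level in other nuclei was lowest in vGluT2-Cre replicate 1, the library with the smallest share of endothelial nuclei. The other nuclei include the mural ones and those with both signals. Against only those other nuclei that had a count for no gene of the rule, the log2 fold change was 9.85 for Nostrin, 7.82 for Emcn and 7.99 for Itm2a. Those nuclei were chosen by the absence of the genes of the rule, so larger differences follow in part from that choice.

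**Figure D2:**
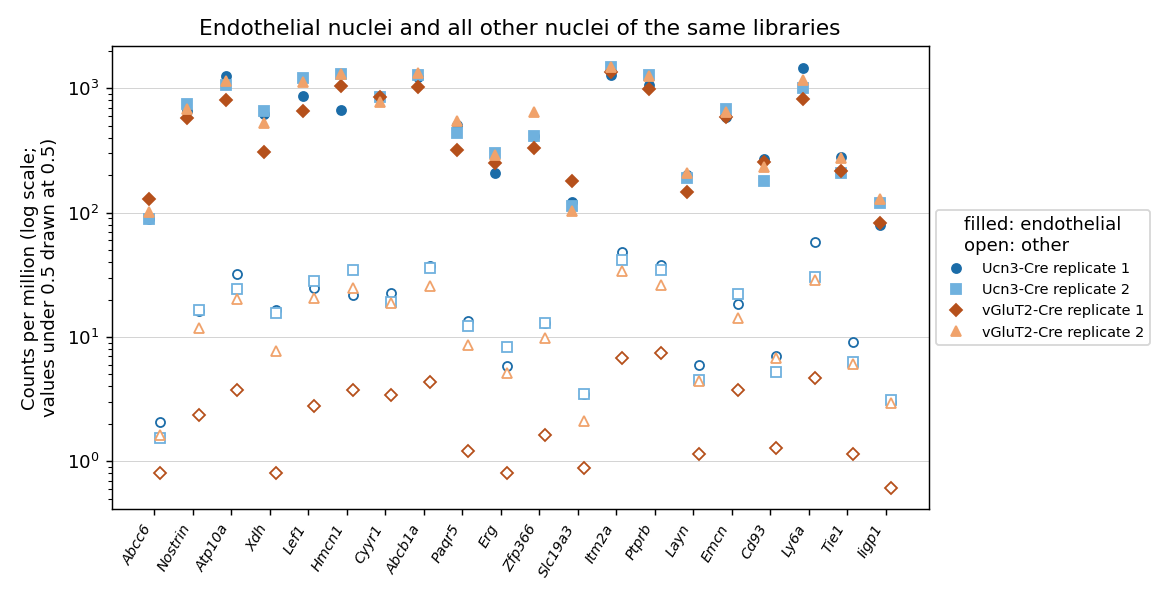
Levels in CPM (log axis) of the 20 genes with the largest fold change, with filled symbols for endothelial and open symbols for other nuclei of each of the 4 libraries; values below 0.5 CPM are drawn at 0.5. The genes were picked to be higher in every library. For each gene the 4 endothelial libraries lie together above all 4 libraries of other nuclei, and among the open symbols vGluT2-Cre replicate 1 is the lowest.

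Some of these genes carry out work known of the barrier. Abcb1a encodes P-glycoprotein, the efflux pump that returns drugs to the blood; it measured 1234, 1268, 1016 and 1319 CPM against 37.5, 35.8, 4.38 and 25.6 CPM, a log2 fold change of 5.80 ± 0.28 (adjusted p = 1.38e-17, edgeR). It has a close paralog, Abcb1b, with which reads may be shared. Abcc6, an ATP-dependent transporter, stood at the head of the ranking with 89.1, 88.8, 128 and 101 CPM against 2.07, 1.55, 0.808 and 1.62 CPM (6.05 ± 0.27). Slc19a3, a thiamine transporter, measured 121, 114, 181 and 102 CPM against 0.875 to 3.49 CPM (5.66 ± 0.27). For Ly6a and Iigp1, members of families of similar genes, the counting of shared reads is not known.

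Transporters of the barrier were nearly all higher. Of 28 genes listed, 27 passed the filter on low counts; 25 were higher, 22 of them by at least 4-fold, and 1, Atp11a, was lower, with a median log2 fold change of 4.09. A member can pass that filter through its endothelial level alone. The members were also chosen with earlier results of these data known, so the counts of calls may follow in part from that choice. These limits hold for every list below. Of all genes tested 27.2% were higher, 6.32% by at least 4-fold, and 27.8% were lower. These shares stand beside every list set against all other nuclei. Slc2a1, the glucose transporter of the barrier, measured 1606, 2091, 1127 and 1622 CPM in endothelial nuclei and 132, 160.1, 75.5 and 141 CPM in other nuclei (log2 fold change 3.69 ± 0.15, adjusted p = 5.95e-19, edgeR). Slc7a5, which exchanges large neutral amino acids, measured 448, 558, 339 and 589 CPM against 15.4, 18.7, 8.62 and 18.3 CPM (5.00 ± 0.14). Slco1c1, a carrier of thyroid hormone, measured 1476, 1981, 1588 and 1636 CPM against 41.2 to 95.0 CPM (4.55 ± 0.19). These values did not overlap in any library. Atp10a, a flippase, was at 5.94 ± 0.25 on the log2 scale. Fabp5 did not pass the test at 0.12, and Slc52a3 fell below the filter.

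Genes of the junctions were mostly higher, by varied amounts. Of 21 listed, 19 were tested, 14 were higher (8 by at least 4-fold) and 1, Nectin3, was lower (median log2 fold change 1.95). Cdh5, the VE-cadherin that holds endothelial cells together, measured 324, 311, 274 and 291 CPM against 13.7, 8.16, 1.68 and 7.97 CPM, or 5.34 ± 0.22 (adjusted p = 2.83e-19, edgeR). Occludin, Ocln, a membrane protein of tight junctions, measured 302, 362, 327 and 336 CPM against 7.61 to 19.3 CPM (4.55 ± 0.16). Esam and Lsr, an adhesion molecule and a protein of tricellular junctions, were at 5.02 ± 0.18 and 4.65 ± 0.17 on the log2 scale. The scaffold Tjp1 was higher by 1.62 on that scale, while Cldn12 (-0.02), Pard3 (0.01) and Magi1 (-0.22) did not pass.

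The machinery of caveolae was higher, and the diaphragm gene Plvap was hardly counted. Of 15 genes of vesicular transport 14 were tested, 10 were higher and 2 lower (median log2 fold change 2.06). Cav1, which builds caveolae, measured 283, 214, 199 and 223 CPM against 8.48 to 18.9 CPM (4.08 ± 0.15, adjusted p = 2.01e-20, edgeR), and Cavin2, a coat protein of caveolae, was at 4.20 ± 0.15. Plvap, a protein of fenestral diaphragms that barrier endothelium lacks, measured 0, 0, 5.84 and 6.29 CPM against 4.14, 4.92, 6.06 and 5.52 CPM, and a 0 allows up to 3 counts. Its levels overlapped and did not pass the test (-0.82 ± 0.67, adjusted p = 0.312). Mfsd2a, a lipid transporter known to hold vesicle traffic down, measured 207, 216, 146 and 192 CPM against 54.0, 59.0, 34.5 and 46.8 CPM (1.98 ± 0.13). The transferrin receptor Tfrc, which carries iron in, was higher by 2.03 ± 0.16 on the log2 scale, and the lipoprotein receptor Lrp1 (-1.10 ± 0.15) was lower.

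Most receptors for vessel growth factors were higher, and their ligands were divided. Of 22 genes listed 19 were tested, with 14 higher (12 by at least 4-fold) and 4 lower (median 2.86 on the log2 scale). Kdr, the main signalling receptor for VEGF, measured 204, 257, 228 and 309.7 CPM against 6.59, 9.08, 1.48 and 7.67 CPM, or 5.34 ± 0.21 (adjusted p = 1.83e-19, edgeR). Tie1, whose promoter is shown above, measured 279.9, 207, 216 and 275 CPM against 9.18, 6.33, 1.14 and 6.12 CPM (5.47 ± 0.22). Ptprb, the phosphatase that acts on the receptor Tek, was at 5.60 ± 0.24, and Acvrl1, a BMP receptor of vessels, at 5.26 ± 0.24. The ligand Vegfc, which acts on lymphatic and other endothelium, was higher: 57.3, 44.4, 81.8 and 66.0 CPM against 5.63 to 7.14 CPM (3.28 ± 0.24, adjusted p = 3.03e-13, edgeR). The ligand Vegfa was lower: 57.3, 23.0, 52.6 and 25.2 CPM against 119.6, 82.5, 146 and 85.5 CPM (-1.53 ± 0.19, adjusted p = 3.46e-08). Angpt1, the activating ligand of Tek, was also lower (-1.73 ± 0.23). Angpt2 measured 6.36, 51.0, 0 and 7.86 CPM against 11.6, 9.85, 0 and 8.21 CPM, so its call (1.23 ± 0.41, adjusted p = 0.0117) rested on Ucn3-Cre replicate 2: without that library its value was -0.36 (adjusted p = 0.675), and it did not pass with DESeq2 either (1.03, adjusted p = 0.2294). It was listed at 0 in vGluT2-Cre replicate 1.

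Wnt genes of the barrier were higher or did not pass, and none was lower. Of 19 listed 17 were tested, 14 were higher and 9 of those by at least 4-fold (median 2.55). Lef1, a nuclear partner of beta-catenin, measured 862, 1203, 659.9 and 1126 CPM against 24.7, 28.4, 2.76 and 20.7 CPM, or 5.87 ± 0.26 (adjusted p = 1.55e-18, edgeR). The receptor Fzd4 measured 111, 118, 87.6 and 126 CPM against 8.15, 5.70, 3.1 and 6.47 CPM (4.27 ± 0.20). Axin2, a feedback target of the pathway, measured 54.1, 74.0, 58.4 and 62.9 CPM against 9.56 to 11.8 CPM (2.55 ± 0.21). Foxq1, a forkhead factor of brain endothelium, was at 5.24 ± 0.25. Foxf2, a forkhead factor known in both pericytes and brain endothelium, was at 4.57 ± 0.31, with 66.8, 55.9, 64.2 and 56.6 CPM. Yet in the 210 endothelial nuclei that held no mural gene of the rule Foxf2 had 3 counts of 424851, or 7.06 CPM, against 58.5 CPM over all 664. The part of mural RNA in its level was not tested. Lrp6, Tcf7l1 and Tcf7l2 (0.29, 0.21 and -0.33) did not pass.

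Of the endothelial transcription factors 24 of 27 were tested, and all 24 were higher, 17 by at least 4-fold (median 3.63). Erg, the ETS factor of endothelial identity, measured 209.9, 301, 251 and 291 CPM against 5.82, 8.23, 0.808 and 5.16 CPM (5.76 ± 0.24, adjusted p = 3.84e-19, edgeR). Klf2, which responds to blood flow, measured 732, 939, 491 and 779.7 CPM against 3.91 to 28.8 CPM (5.37 ± 0.22). Sox17 and Mecom, factors of arterial and endothelial identity, were at 5.25 ± 0.22 and 5.11 ± 0.19. The smallest differences of the list were those of Etv6 (0.56), Prdm16 (0.72) and Mef2a (0.73), genes known in many cell types. Sox7, Bcl6b and Hlx fell below the filter, each listed at 0 in 2 of the libraries.

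Notch genes were mostly higher, among receptors, ligands and targets. Of 11 listed 9 were tested and 7 were higher (median 2.2 on the log2 scale). Notch4, the Notch receptor of endothelium, measured 95.4, 60.9, 70.1 and 92.7 CPM against 2.02 to 4.01 CPM (4.59 ± 0.25, adjusted p = 2.39e-16, edgeR). Among the ligands, Jag2 was at 3.57 ± 0.18, and Jag1 measured 92.2, 47.7, 75.9 and 40.9 CPM against 9.50 to 19.7 CPM (2.30 ± 0.22). Dll4, the ligand of arterial and sprouting endothelium, measured 28.6, 47.7, 0 and 44.0 CPM against 3.49, 2.88, 0 and 2.04 CPM (3.95 ± 0.34) and was listed at 0 in all nuclei of vGluT2-Cre replicate 1. Of the target genes, Hes1 measured 92.2, 70.7, 75.9 and 92.7 CPM against 16.9 to 23.3 CPM (2.2 ± 0.18), and Hey1, listed at 0 in vGluT2-Cre replicate 1, was higher by 1.64 ± 0.29. Hey2 (-0.18) and Heyl (0.77), targets too, did not pass.

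Genes of the surface that blood cells meet were higher too. Of 20 genes of leukocyte adhesion and immunity 18 were tested and 17 were higher, 16 by at least 4-fold (median 4.66). Cd93 and Icam2, adhesion molecules, were at 5.52 ± 0.23 and 5.24 ± 0.24. Vwf, the clotting factor stored in endothelium, measured 124, 151, 169 and 189 CPM against 2.15 to 7.11 CPM (5.19 ± 0.23, adjusted p = 1.59e-18, edgeR). The class I antigen genes B2m, H2-D1 and H2-K1 were at 3.95, 3.82 and 3.62, as differences on the log2 scale. Ackr1, a chemokine carrier of larger venules, measured 3.18, 6.58, 5.84 and 1.57 CPM against 4.91, 5.84, 9.36 and 4.92 CPM; the values overlapped and did not pass (-0.49 ± 0.55, adjusted p = 0.475).

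**Figure D3:**
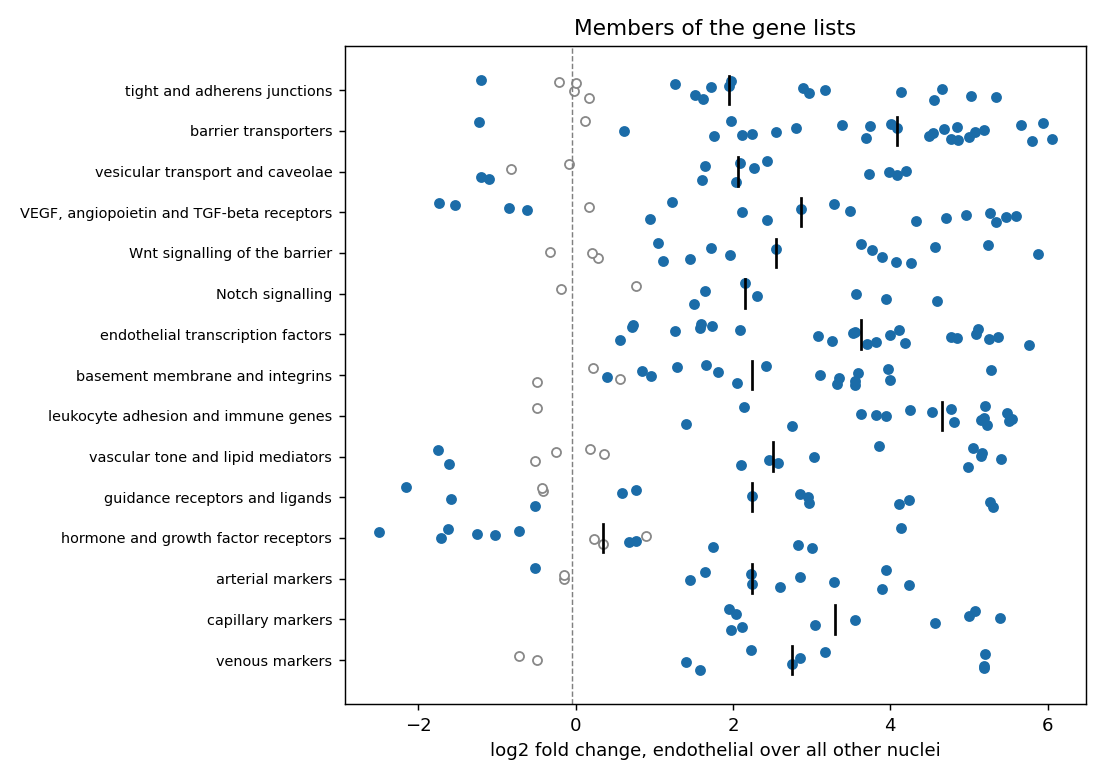
Log2 fold change of endothelial over other nuclei for each tested member of the 15 gene lists; filled points passed the adjusted threshold of 0.05, open points did not, the black tick is the list's median and the dashed line the median of all genes tested. Most lists lie to the right of the dashed line, with medians up to 4.66 for leukocyte adhesion genes, and the hormone and growth factor receptors sit nearest to it at 0.35.

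Basement membrane and integrin genes were higher as well, 17 of the 20 tested of 21 listed and 11 by at least 4-fold (median 2.24). Fn1, fibronectin, measured 601, 505, 537 and 544 CPM against 2.69 to 29.1 CPM (5.28 ± 0.26, adjusted p = 2.57e-17, edgeR), and the collagen receptor subunit Itga1 417, 415, 356 and 509 CPM against at most 35.3 CPM (3.97 ± 0.16). The laminin chain Lama5 and the heparan sulphate proteoglycan Hspg2 were at 4.00 ± 0.27 and 3.60 ± 0.19. Not all 4 were particular to endothelial over mural nuclei. Itga1 was at 320 CPM in endothelial nuclei without a mural gene of the rule and at 752 CPM in mural nuclei without an endothelial one. Hspg2 was at 56.5 and 55.5 CPM in these nuclei, Fn1 at 360 and 17.3 CPM and Lama5 at 47.1 and 6.93 CPM. Among regulators of vascular tone and lipid mediators 16 of 19 were tested, 10 were higher, each by at least 4-fold, and 2 lower (median 2.51). Nos3, endothelial nitric oxide synthase, measured 194, 161, 128 and 162 CPM against 1.62 to 9.05 CPM (4.99 ± 0.21). Pltp, a phospholipid transfer protein, measured 2344, 2522, 1945 and 2503 CPM against 23.2 to 94.5 CPM (5.16 ± 0.22). The adhesion receptor Adgrf5 and Ramp2, partner of the adrenomedullin receptor, were at 5.41 ± 0.25 and 5.16 ± 0.19. Ednrb, an endothelin receptor, was lower (-1.60 ± 0.18).

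Guidance genes were divided. Of 16 listed 15 were tested, 10 were higher, 8 by at least 4-fold, and 3 were lower (median 2.25). Robo4, the Robo receptor of endothelium, measured 181, 183, 152 and 159 CPM against 0.539 to 6.05 CPM (5.30 ± 0.25, adjusted p = 1.12e-17, edgeR), while its relative Robo1, known from neurons, measured 153, 145, 187 and 151 CPM against 850.4, 640.1, 802 and 599 CPM (-2.2 ± 0.16, adjusted p = 2.82e-13). The 2 genes thus lay on opposite sides in every library. Sema3c, a secreted semaphorin, was at 5.27 ± 0.20 and Plxnd1, a semaphorin receptor of vessels, at 4.12 ± 0.27.

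Hormone and growth factor genes were closest to the background, with 6 of 15 tested members higher, 6 lower and a median log2 fold change of 0.35. Of all genes tested 27.2% were higher and 27.8% lower. The list held 18 genes. Among receptors through which blood-borne hormones reach the brain, Igf1r measured 2726, 2892, 2132 and 2894 CPM against 479.8, 338, 341 and 362 CPM (2.82 ± 0.16, adjusted p = 9.64e-16, edgeR), and Insr, the insulin receptor, 518, 597, 519.7 and 528 CPM against 159 to 166 CPM (1.75 ± 0.13). Lepr, the receptor for leptin, a satiety hormone, measured 31.8, 41.1, 17.5 and 33.0 CPM against 5.43, 3.3, 4.04 and 4.26 CPM, or 3.00 ± 0.31 (adjusted p = 1e-09). All 3 were above the other nuclei in each library. Pdgfb, the ligand by which endothelium recruits pericytes and the only ligand of the list, measured 283, 207, 105 and 228 CPM against 8.35 to 13.8 CPM (4.14 ± 0.15). Egfr (-2.50 ± 0.21), the thyroid hormone receptor Thrb (-1.71 ± 0.15) and Fgfr3 (-1.62) were lower. Ghsr and Glp1r, receptors for ghrelin and GLP-1, gave no test: Ghsr has no entry in the tables used here, and Glp1r had 8 counts in all nuclei of Ucn3-Cre replicate 2 and was listed at 0 in the other 3 libraries.

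The second comparison set the endothelial nuclei against the 391 mural nuclei of the same vessels. Of 7332 genes tested outside the rule 1121 (15.3%) differed: 530 (7.23%) were higher in endothelial nuclei and 591 (8.06%) lower at an adjusted p below 0.05, 3 (0.0409%) and 197 (2.69%) of them by at least 4-fold. The counts moved with the settings, in part by over 1.5 times. DESeq2 called 203 higher and 417 lower, so that 32.7% of its calls were higher, against 47.3% with edgeR. The total of 1121 calls became 647 without Ucn3-Cre replicate 2, 617 without vGluT2-Cre replicate 2 and 691 without the library block. Mural nuclei held endothelial RNA, as the share with at least 3 endothelial genes showed (41.9%, 34.1%, 10.3% and 25.6% by library), so differences are given also between the 210 endothelial nuclei with no mural gene of the rule and the 150 mural nuclei with no endothelial gene of it. This setting was added after the data were seen. It picks nuclei by the genes of the rule, so low counts there of genes expressed along with them follow in part from the pick. There 310 genes were higher and 309 lower.

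The 8 genes highest in endothelial over mural nuclei were Nxpe2, Sorbs2os, St6galnac3, Abcc6, Rundc3b, Mecom, Igsf5 and Shtn1. Nxpe2 measured 145, 141, 118 and 156 CPM against 41.9, 41.0, 6.81 and 36.2 CPM (log2 fold change 2.03 ± 0.24, adjusted p = 9.59e-06, edgeR). Mecom measured 1767, 1726, 1211 and 1894 CPM against 750.1, 763, 95.4 and 744 CPM (1.65 ± 0.31, adjusted p = 0.00124). For 7 of the 8 genes the level in mural nuclei was lowest in vGluT2-Cre replicate 1, where the fewest mural nuclei held endothelial genes, and the groups did not overlap for any of the 8. The 8 were also picked for a large difference in the same direction in every library, so this follows largely from the pick. The share of all genes tested without overlap is not given here either. In nuclei without genes of the other class, Nxpe2 had 102 counts in endothelial and 1 in mural nuclei, and Mecom 914 and 7, of 424851 and 288556 counts in all. The fitted differences there were 5.47 for Nxpe2 and 6.12 for Mecom. Sorbs2os is antisense to another gene, and reads of the pair cannot be told apart without strand.

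Over all endothelial and all mural nuclei, genes of mural cells differed by more. The 8 lowest in endothelial nuclei were Trpc4, Pla2r1, Adap2os, Ednra, Cd248, Atp13a5, Sntb1 and Slc16a12. Trpc4, a cation channel, measured 3.15, 4.94, 0 and 1.53 CPM against 112, 205, 266 and 114 CPM (-5.68 ± 0.34, adjusted p = 1.23e-08, edgeR). Atp13a5, a transporter known from brain pericytes, measured 81.9, 165, 41.3 and 36.7 CPM against 1477, 2357, 2671 and 1709 CPM (-4.73 ± 0.33). Ednra, the endothelin receptor of smooth muscle, measured 18.9, 9.87, 0 and 0 CPM against 163, 271, 327 and 251 CPM (-5.12 ± 0.40), and -5.91 without Ucn3-Cre replicate 1 or -4.46 without vGluT2-Cre replicate 2. In the nuclei without genes of the other class, Trpc4 had 0 counts in endothelial and 82 in mural nuclei, Ednra 0 and 102, and Atp13a5 10 and 885. A count of 0 allows up to 3 counts there. The differences fitted in those nuclei were -7.15 for Atp13a5 and -8.11 for Ednra, beside 5.47 for Nxpe2 and 6.12 for Mecom. The part of endothelial RNA in the mural sums was not tested. Adap2os is antisense to another gene and is uncertain in the same way as Sorbs2os.

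**Figure D4:**
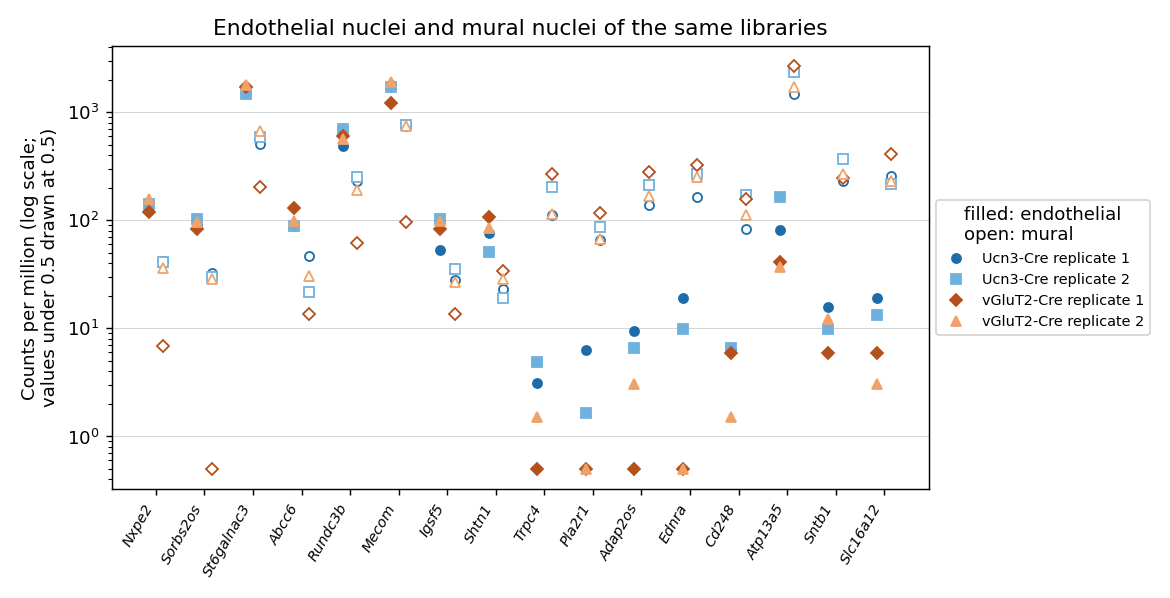
Levels in CPM (log axis) of the 8 genes highest and the 8 lowest in endothelial relative to mural nuclei, with filled symbols for endothelial and open symbols for mural nuclei of each library. The genes were picked to differ in the same direction in every library. The 2 kinds of nuclei lie apart for every gene, by less among the genes higher in endothelial nuclei (log2 fold change up to 2.03) than among those lower (down to -5.68). All nuclei of both kinds are drawn, and the mural ones held endothelial RNA, whose part was not tested.

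Within the lists, 20 of 27 tested barrier transporters were higher in endothelial than in mural nuclei and none was lower, where 7.23% and 8.06% of all genes tested were higher and lower; their median log2 fold change was 0.97 against 0.0045 for all genes. Slc7a5 measured 444, 558, 343 and 573 CPM against 158, 227, 47.7 and 286 CPM (1.41 ± 0.22, adjusted p = 0.000264, edgeR), and the arginine carrier Slc7a1 252, 341, 354 and 402 CPM against 144, 112, 47.7 and 169 CPM (1.44 ± 0.23). Abcb1a measured 1222, 1268, 1028 and 1283 CPM against 619.6, 801, 149.9 and 649 CPM (1.21 ± 0.28, adjusted p = 0.00573), a call lost without the library block (adjusted p = 0.068). In nuclei without genes of the other class, Slc7a5 had 198 counts in endothelial and 3 in mural nuclei, Slc7a1 175 and 2, and Abcb1a 405 and 4. Ocln, at 1.11 ± 0.23 over all nuclei, had 114 and 2. These shares of all genes stand beside the other lists too. Junctions had 8 of 17 tested members higher and 1 lower, Wnt genes 7 of 18 and none, transcription factors 9 of 24 and 2, leukocyte genes 9 of 16 and none, capillary markers 7 of 10 and none, and vessel growth factor genes 6 of 18 and 1. Vesicular transport had 4 of 13 higher and 2 lower, vascular tone 7 of 12 and 2, guidance 4 of 14 and 2, hormone receptors 3 of 12 and 3, and venous markers 2 of 8 and 1.

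Among the transcription factors Mecom, given above, had the largest difference over mural nuclei (1.65), and Erg was 1 of the others that were higher. Erg measured 208, 301, 254 and 283 CPM in endothelial and 65.2, 194, 20.4 and 119.9 CPM in mural nuclei (1.27 ± 0.25, adjusted p = 0.00183, edgeR). Its 139 counts in endothelial nuclei without mural genes stood against 0 in mural nuclei that were chosen to hold no endothelial gene of the rule. Nr2f2, a factor listed among venous markers and also known in pericytes, was on the other side with 72.5, 59.2, 59.1 and 67.3 CPM against 312, 353, 402 and 415 CPM (-2.53 ± 0.18, adjusted p = 5.45e-08).

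Basement membrane, Notch and arterial genes were the lists with more members lower than higher against mural nuclei. Of 18 tested basement membrane and integrin genes 2 were higher and 9 lower (median -0.63), beside the 7.23% and 8.06% of all genes. Nid1, nidogen, which links laminin to collagen IV, measured 50.4, 47.7, 23.6 and 45.9 CPM against 317, 284, 456 and 305 CPM (-2.85 ± 0.21, adjusted p = 6.12e-08, edgeR), and the laminin chain Lamc1 142, 102, 112 and 97.8 CPM against 363, 465, 545 and 381 CPM (-1.95 ± 0.19). In nuclei without genes of the other class Nid1 had 3 counts in endothelial and 130 in mural nuclei. Its call against all other nuclei (0.96) therefore stands beside mural RNA in the endothelial sum, whose part was not tested. Of 9 Notch genes none was higher and 5 were lower (median -0.73). Heyl, a Notch target, measured 15.8, 4.94, 11.8 and 4.59 CPM against 97.8, 104, 95.4 and 108 CPM (-3.74 ± 0.34), and the ligand gene Jag1 was at -1.23 ± 0.20. Arterial markers had 3 of 12 lower and none higher; of them Gja4 had 2 counts in endothelial and 47 in mural nuclei without genes of the other class, and Mgp, matrix Gla protein, 46 and 159.

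A few genes often named as endothelial did not differ from mural nuclei beyond the spread. Car4, a carbonic anhydrase listed among capillary markers, measured 347, 362, 443 and 368 CPM against 331, 451, 429 and 411 CPM (-0.12 ± 0.18, adjusted p = 0.742, edgeR). The organic anion transporter Slc22a8 (0.37 ± 0.17, adjusted p = 0.194) and the junction protein Cgnl1 (-0.14 ± 0.18, adjusted p = 0.697) overlapped as well. In the nuclei without genes of the other class Car4 had 119 counts in endothelial and 90 in mural nuclei, Slc22a8 115 and 53, and Cgnl1 94 and 68, where Abcb1a had 405 and 4. The differences fitted in those nuclei were -0.40 (adjusted p = 0.2584), 0.32 (adjusted p = 0.4283) and -0.20 (adjusted p = 0.7348). A test that does not pass does not show that the levels were the same.

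Vessels change from artery through capillary to vein, and 3 lists of markers for these zones were counted per nucleus. At least 3 of the 10 capillary markers had a count in 482 endothelial nuclei (72.6%; 100, 178, 52 and 152 by library), at least 3 of the 13 arterial markers in 77 (11.6%; 17, 26, 4 and 30) and at least 3 of the 13 venous markers in 132 (19.9%; 29, 40, 14 and 49). In other nuclei these shares were 5.09%, 0.835% and 0.899%. After thinning each nucleus to 900 counts, which left none out, they were 46.7%, 3.16% and 6.02% in endothelial nuclei and 0.590%, 0.143% and 0.128% in others. The shares depend on the number of genes in each list and say nothing of the length of each kind of vessel.

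Against all other nuclei 10 of 13 tested arterial markers were higher (median 2.25), 10 of 10 capillary markers (median 3.30) and 9 of 11 venous ones (median 2.76), beside 27.2% of all genes tested. Cxcl12, a chemokine listed among the capillary markers, measured 852, 1086, 666 and 857 CPM against 4.31 to 36.1 CPM (5.40 ± 0.24, adjusted p = 2.56e-18, edgeR). The arterial kinase Bmx measured 50.9, 11.5, 52.6 and 25.2 CPM against 1.21 to 3.88 CPM (3.90 ± 0.38), and 2.80 on the log2 scale without the nuclei that held 3 markers of another class. Slc38a5, an amino acid transporter listed as venous, measured 57.3, 64.2, 70.1 and 86.5 CPM against 0.875 to 2.46 CPM (5.20 ± 0.28). The connexin Gja4 measured 38.2, 18.1, 5.84 and 3.14 CPM against 2.29 to 6.68 CPM; the groups overlapped, and its call (1.46 ± 0.42, adjusted p = 0.00387) was lost without Ucn3-Cre replicate 1 (0.88, adjusted p = 0.2002) and without Ucn3-Cre replicate 2 (1.46, adjusted p = 0.05414), and also without the library block (1.71, adjusted p = 0.1179). Gja5, the other arterial connexin, did not pass (-0.15 ± 0.61).

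Nuclei with at least 3 arterial but fewer than 3 venous markers (61) and nuclei with the reverse (116) were then set beside the 471 nuclei with neither; 16 held both. The sets are small and uneven over libraries (11, 23, 2 and 25 arterial nuclei), the genes named here were chosen after their values were seen, and the values are a description with no test. Their median depths were 2952, 2947 and 1896 counts. Cxcl12 was at 1211 CPM in the arterial set, 522 in the venous set and 967 in nuclei with neither. By library it measured 895, 1481, 0 and 1173 CPM in the arterial and 696, 711, 270.0 and 359.6 CPM in the venous set, so that vGluT2-Cre replicate 1, with 2 arterial nuclei, went the other way. Mfsd2a was at 256, 153 and 198 CPM in the 3 sets, with Ucn3-Cre replicate 1 the other way at 139.8 CPM in arterial and 189.9 CPM in venous nuclei.

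Lef1 was lower in the arterial set, at 662 CPM, than in the venous set, at 1443 CPM, with 908 CPM in nuclei with neither. It measured 419.5, 881, 479 and 596 CPM in the arterial and 1203, 1606, 809.9 and 1530 CPM in the venous nuclei. Each library had its higher value in the venous set, but the arterial value of vGluT2-Cre replicate 1 came from only 2 nuclei. Mecom followed the same order with 1060.0, 2448 and 1483 CPM in arterial, venous and remaining nuclei, and Igf1r with 1969, 3301 and 2606 CPM. Tjp1 was at 1110.2, 1916 and 1185 CPM. The arterial markers include Gja4 and Mgp, which had more counts in mural than in endothelial nuclei without genes of the other class. The venous markers include Nr2f2, for which the same held, with 156 counts in mural and 22 in endothelial nuclei of that kind. There Lef1 had 496 counts in endothelial and 5 in mural nuclei, and Mecom 914 and 7. Igf1r had 1061 and 107, and Tjp1 729 and 172. Cxcl12 (166 and 23) and Mfsd2a (54 and 7), higher in the arterial set, were lower in mural nuclei too. The part of mural RNA in the arterial and in the venous set was not tested.

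**Figure D5:**
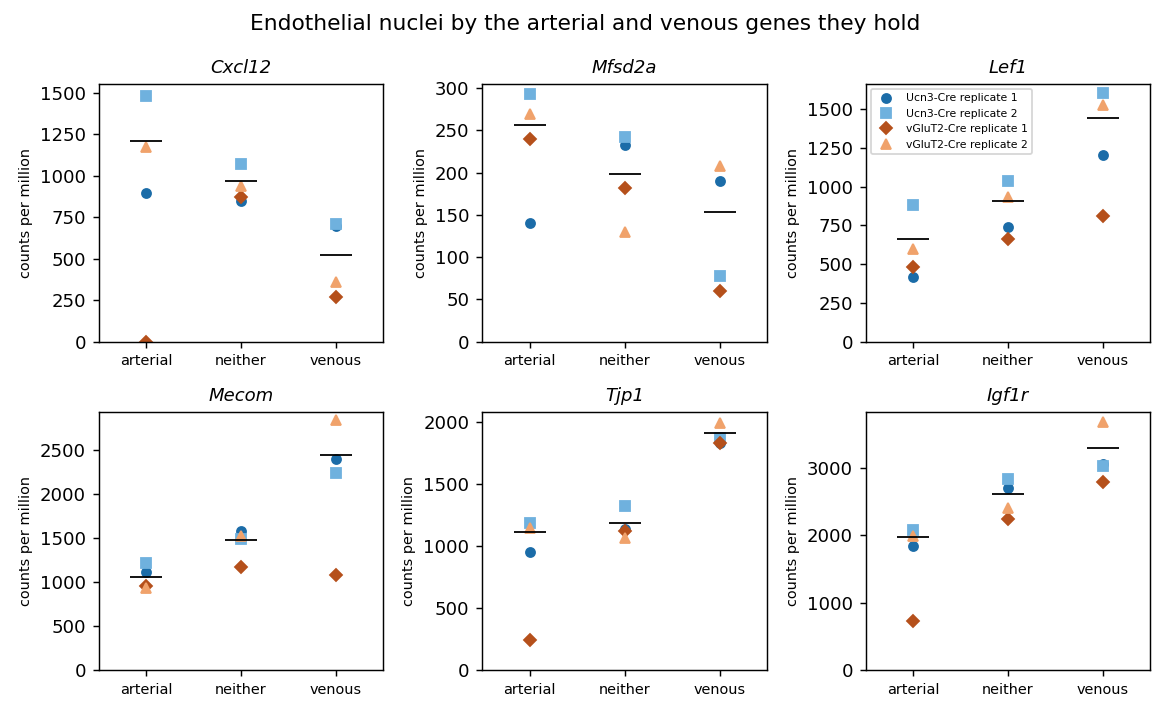
Levels in CPM of Cxcl12, Mfsd2a, Lef1, Mecom, Tjp1 and Igf1r in endothelial nuclei with at least 3 arterial markers, with neither, and with at least 3 venous markers. Points are the 4 libraries, and each black dash marks the value over all nuclei of a set. Over all nuclei of a set Cxcl12 and Mfsd2a go down and Lef1, Mecom, Tjp1 and Igf1r go up from the arterial to the venous set, with only 2 arterial nuclei in vGluT2-Cre replicate 1.

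The design also sets the 2 lines against each other within endothelial nuclei. Ages and the isolation of 1 library differ along with the line and cannot be told apart from it. The share of endothelial nuclei was 3.43% ± 0.498 (SD, n = 2) in Ucn3-Cre and 2.76% ± 2.12 in vGluT2-Cre libraries, a difference of 0.668 percentage points (exact two-sided permutation p = 1, where 2 against 2 cannot go below 0.333). The difference turned to -0.834 points without vGluT2-Cre replicate 1. The endothelial profiles gave no gene past the threshold among 8467 tested (0.0%; 0 with edgeR's quasi-likelihood test and 201 at an unadjusted p below 0.05; DESeq2 called 1, Hbb-bt).

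The 3 genes with the smallest p-values did not pass and are given as values. Hbb-bt, a haemoglobin chain with a near-identical copy, measured 272, 567, 84.3 and 65.5 CPM (log2 difference of Ucn3-Cre over vGluT2-Cre 2.57 ± 0.39, adjusted p = 0.872, edgeR). The 5 blood genes together, of which it is 1, were at 2883, 3776, 2819 and 626 CPM, and the part of blood RNA was not tested. Pde8b, a phosphodiesterase, measured 79.1, 111, 36.1 and 31.2 CPM (1.56, adjusted p = 1), and Atp13a5 82.3, 168, 42.2 and 37.4 CPM (1.74, adjusted p = 1). Pde8b and Atp13a5 were mural genes here, with 12 and 10 counts in the endothelial nuclei without mural genes and 677 and 885 in the mural nuclei without endothelial genes. The share of endothelial nuclei with a mural gene was 79.5% and 68.3% in Ucn3-Cre and 49.3% and 67.9% in vGluT2-Cre libraries, and its part in these values was not tested.

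Between the sexes, 2 female against 2 male libraries, 3 of 8467 genes passed (0.0354%), 1 higher in females (0.0118%) and 2 in males (0.0236%), all sex-linked and each by at least 4-fold. Xist, the RNA of X inactivation, measured 1431, 0, 0 and 1536 CPM (adjusted p = 8.8e-05, edgeR), high in both libraries labelled female. The Y-linked Uty measured 0, 127, 151 and 3.12 CPM (adjusted p = 0.00572) and Eif2s3y 0, 106, 120 and 0 CPM (adjusted p = 0.00761), high in both libraries labelled male. The labels and the endothelial sums thus had the same sexes.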

How the data were processed

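The deposited tables hold 15632 genes by symbol for each nucleus of 4 10x libraries. The submitters' processing notes name Cell Ranger 3.1.0, Seurat 3.2 and the build mm10. The deposited values are expected counts, not scaled to depth: of the values above 0, 97.2 to 98.8% per library fall short of a whole number by less than 0.5, and 92.8 to 95.7% of the counts rounded up remain. The step that did this is not given in the sources used here, nor is its treatment of doublets.

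Values were rounded to choose nuclei and summed as deposited, then rounded, per library and class. The quasi-likelihood test of edgeR 4.0.16 in R 4.3.3 was run on the sums after filterByExpr and TMM scaling, with Benjamini-Hochberg adjustment over the genes tested, up to 14 genes of the rule among them, with the library as a block between classes and 2 libraries against 2 without a block for line and sex. The alternatives were DESeq2 1.42.0 with its own size factors, no filter, other gates, deeper nuclei, rounding per nucleus, fits with or without a block, and each library left out. The code was tested on simulated data. CPM are TMM-scaled in comparisons and unscaled in marker sums, per-zone values and nuclei without genes of the other class.

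Named genes are the 20 largest fold changes over other nuclei with at least 10 counts in every library, the 4 largest of each of 15 lists, the 8 largest in each direction against mural nuclei, and the smallest p-values of line and sex. Genes named by fold change in either comparison, other than list members, also differed in the same direction in all 4 libraries. Gene models without names were left out. Further list members are named for their role, after their values were seen. The members and lists were chosen with earlier results of these data known. Gene positions come from GENCODE vM21 (GRCm38), where 342 of 343 symbols matched; promoters are those of RefSeq on GRCm38.p6.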

Additional observations from a re-analysis of the deposited data

How the results depend on the processing

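Against all other nuclei the count of genes higher lay between 2832 and 3569 over all alternatives, that of genes lower between 2881 and 3727, and 213 of 237 named or listed genes kept their call in each that gave them a value (209 of the 233 with a value in all). Angpt2 ran from -0.36 to 1.60 without 1 library and reversed to -0.36 without Ucn3-Cre replicate 2. Against mural nuclei 129 of 225 genes kept their call in each alternative that gave them a value, and 57 of the 113 with a value in all; none reversed. The 1121 calls (530 higher, 591 lower) became 620 with DESeq2 (203 higher), 691 without the library block (251 higher) and 619 in nuclei with no gene of the other class (310 higher, 309 lower). Leaving out 1 library gave 617 to 1204 calls, 235 to 539 higher and 382 to 665 lower. The 0 calls between lines became 1 with DESeq2, 30 with no filter on low counts, 1 among genes counted in every library and 0 to 103 without 1 library; without vGluT2-Cre replicate 2 they were 103, without vGluT2-Cre replicate 1 27 and without Ucn3-Cre replicate 2 7. The 3 calls between sexes became 54 with no filter, 0 among genes counted in every library, which leaves out Xist and Eif2s3y, and 14 to 134 without 1 library. The cause was not tested. The share difference ran from -0.834 to 2.17 points without 1 library, -0.834 without vGluT2-Cre replicate 1.

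Replicate numbers were not used as pairs in the main fits. Same-numbered deviations had a correlation of 0.0356 over 8479 genes, and differently numbered ones -0.0356. With 2 libraries per line these values mirror each other, so they cannot tell whether libraries share a batch. The names of the nuclei in both replicate 2 libraries carry the same number, whose meaning is not given. With the replicate block there were 0 calls between lines and 1 between sexes. Limits include 2 libraries per group for line and sex and RNA of other cells in the sums; the smallest endothelial sum was 155935 counts, in vGluT2-Cre replicate 1.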
